A study of Mus musculus with 2 samples.

Results

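The S100 proteins and annexins are 10 genes here: *S100a4*, *S100a6*, *S100a10*, *S100a11*, *S100a13*, *Anxa1*, *Anxa2*, *Anxa3*, *Anxa5* and *Anxa6*. They were chosen by name, as calcium-binding partners at the membrane. In all 14450 mouse genes had a tag in these data, and 9 of the 10 genes were among them. GC-1spg derives from the type B spermatogonia of a mouse aged 10 days, transformed with pSV3-neo, and its label gives a stage just short of the primary spermatocyte. GC-2spd (ts) derives from the spermatocytes of a mouse aged 6 weeks, transformed with the SV40 large T antigen, and its label places it before meiosis. The founder mice differed in age as well as in cell type. The transforming agents are given under different names, which does not show that the antigen supplied differed. Effects of age, cell type and any difference in the agent cannot be told apart, and each line stands for 1 donor cell population. Both were grown in DMEM with fetal bovine serum. Total RNA of each line gave 1 library by digital gene expression (DGE) tag sequencing, and the question was which transcripts differ between the lines.

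S100 proteins are small EF-hand proteins that usually form dimers and, once calcium is bound, attach to other proteins. Annexins bind negatively charged membrane lipids when calcium rises, and take part in membrane repair, vesicle traffic and anchoring of the actin cortex. Several S100 dimers join a pair of annexin molecules: S100a10 binds Anxa2 and S100a11 binds Anxa1, which lets a complex tether membranes to each other.

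A DGE tag is CATG, where *Nla*III cuts the cDNA, and the 17 bases that follow it toward the 3′ end, 21 bases in all. A transcript copy gives about 1 tag whatever its length, so levels of different genes were compared as tags per 1000000 clean tags (TPM) without scaling to length. The main tag of each gene is shown because it carried 80.4% to 99.0% of the tags of that gene in either library, and so sets each of the values that follow. CATG is in capitals, and positions are on GRCm38.
S100a4: CATGtgcacagtgctgagcaa
S100a6: CATGccctctggatcaggcca
S100a10: CATGaagcagaaggggaagaa
S100a11: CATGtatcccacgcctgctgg
Anxa1: CATGggcttaagtaggaaagt
Anxa2: CATGagacacttcctcttatg
Anxa3: CATGataagggaaattcaatc
Anxa5: CATGaagggtgctgggacgga
Anxa6: CATGgctaaggggctggtgaa

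All 9 main tags matched the transcript exactly and lay at the CATG site nearest its 3′ end. The main tags of 6 genes lay in the 3′ UTR and those of 3 in the coding sequence. On chromosome 3, plus strand, the tag of *S100a4* was at chr3:90605998-90606018 in the 3′ UTR of exon 3, and that of *S100a6* at chr3:90613771-90613791 in the coding part of exon 2. Also on the plus strand, the tag of *S100a10* was at chr3:93564380-93564400 in the coding part of exon 3, and that of *S100a11* at chr3:93526233-93526253 in the 3′ UTR of exon 3. The *Anxa5* tag, in coding sequence on the minus strand, began in exon 11 and ended in exon 12, with its ends at chr3:36450421-36450644. The other annexin tags were in the 3′ UTR. These were at chr19:20373632-20373652 for *Anxa1* (minus strand, exon 13), chr9:69491733-69491753 for *Anxa2* (plus strand, exon 13), chr5:96845745-96845765 for *Anxa3* (plus strand, exon 13) and chr11:54979246-54979266 for *Anxa6* (minus strand, exon 26).

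*S100a13*, which encodes an S100 protein known for the release of growth factors that lack a signal sequence, had no listed tag in either library. Its only annotated transcript is 715 bases long and holds 0 CATG sites, so the method could not count it and its level is not known from these data.

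The libraries held 5072149 clean tags in GC-1spg against 4726808 in GC-2spd (ts), and 1 tag copy was worth 0.197 and 0.212 TPM. With 1 library per line no difference has a replicate check, and each test compares these 2 libraries and not the cell types. Of 12 germ cell marker genes, 1 had a listed tag (*Uchl1*, 329 copies in GC-1spg against 66 in GC-2spd (ts)), and the defining markers *Ddx4*, *Dazl*, *Kit* and *Stra8* were unlisted in both although each has tags in the reference. With sense matches preferred, 3 of the 12 were listed. Of 12 fibroblast and mesenchyme markers 10 were listed, with summed levels of 7247 TPM in GC-1spg against 4265 TPM in GC-2spd (ts). *Sparc* was the largest part in both, followed by *Col1a1* in GC-1spg (2063 TPM) and by *Vim* in GC-2spd (ts) (613 TPM). Of these markers 4 were called higher (*Vim*, *Fbln2*, *Col3a1* and *Pdgfrb*) and 2 lower (*Col1a1* and *Dcn*). The other lists were Sertoli cells (4 of 6 listed, 135 and 38.9 TPM, with *Wt1* at 620 and 0 tags but *Gata4* at 29 and 138), Leydig cells (2 of 6, 0.789 and 1.06 TPM), peritubular myoid cells (5 of 5, 13.01 and 122.5 TPM) and macrophages (0 of 5). The myoid sum was carried by *Acta2* (50 and 555 tags), while *Des* had 11 and 4. *Myh11* had 0 and 2 tags, *Cnn1* 5 and 15, and *Tagln* 0 and 3, or 5 and 219 with sense matches preferred. The part of these markers in the results was not tested, and in such bulk RNA fewer cells of a type and less RNA per cell cannot be told apart.

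The order of the S100 and annexin genes by level differed between the lines, and several were among the genes with the most counted tags in both. Only sense tags that matched a single gene were counted. A gene that shares many of its tags with other genes can therefore rank too low, and the ranks are not an order of all transcripts. In GC-1spg *S100a6* led, at rank 5 of all genes by counted tags, followed by *Anxa1* at rank 21, *S100a11* at 48 and *S100a4* at 61. In GC-2spd (ts) *S100a11* was at rank 7, *S100a6* at 9 and *S100a4* at 40, while *Anxa1* was at 115, below *Anxa2* at 102. *Anxa3*, *Anxa5*, *Anxa6* and *S100a10* followed in that order in both libraries, and *S100a10* was the lowest at ranks 4170 and 1808. In GC-1spg each gene exceeded the next in the order by more than counting error. In GC-2spd (ts) *S100a11* and *S100a6* could not be ordered (ratio of levels 1.02, exact 95% interval 0.989 to 1.04). *Anxa2* exceeded *Anxa1* there by only 1.06-fold (1.003 to 1.122). All intervals are exact 95% intervals of counting error, and they do not cover PCR copies or differences between cultures.

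**Figure D1:**
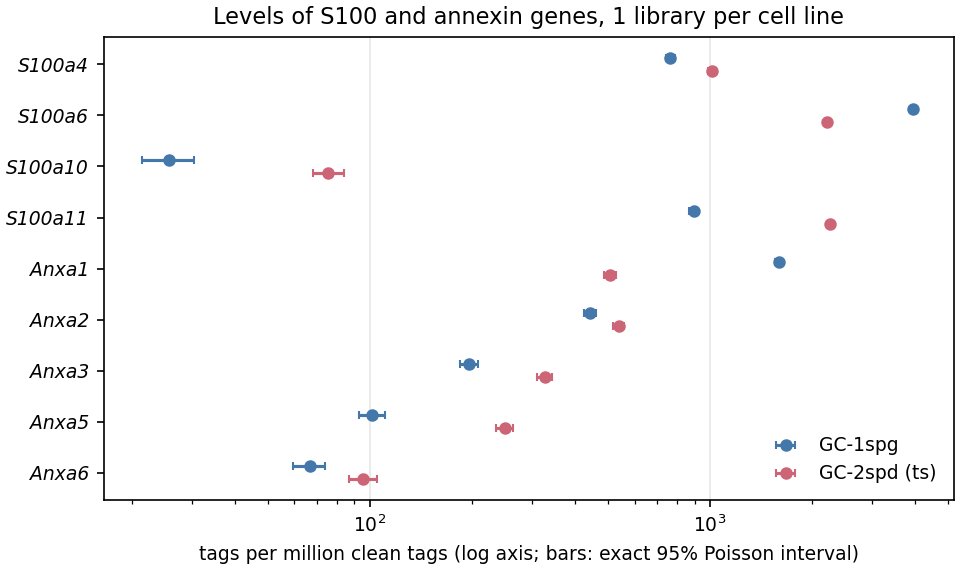
Levels of the 9 listed genes in TPM (log axis), 1 point per library, with bars for the exact 95% Poisson interval. *S100a6* and *Anxa1* lie to the right in GC-1spg, the other 7 genes lie to the right in GC-2spd (ts), and *S100a10* is lowest in both.

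Of the 9 listed genes, 3 were called higher and 1 lower in GC-2spd (ts). The test allows for counting error alone. With an assumed biological coefficient of variation of 0.2 or 0.4 between cultures, edgeR's exact test called 0 of them in either direction, and with 0.1 it called the same numbers. A gene was called at a false discovery rate (FDR) of at most 0.001 in the two-sided Audic-Claverie test, with Benjamini-Hochberg adjustment over all 14450 genes, and a log2 ratio no nearer to 0 than 1 or -1. By that rule 11.7% of all genes were called higher and 7.84% lower. Among the 7100 genes with at least 100 tags over both libraries, a level that each listed S100 and annexin gene passed, the shares were 16.5% and 8.77%. All 9 genes had an FDR under the limit, the highest being 2.35e-06 for *Anxa6*, so the size of the log2 ratio alone decided which of them were called. Their median log2 ratio was 0.52, beside 0.16 over the 11373 genes with tags in both libraries. Trimmed mean (TMM) scaling moved every log2 ratio down by 0.17, and the median over these 9 genes was then 0.35.

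*S100a10* encodes the S100 protein that holds Anxa2 in a complex at the plasma membrane without needing calcium itself. It had 130 tags in GC-1spg against 357 in GC-2spd (ts), which are levels of 25.6 TPM (21.4 to 30.4) and 75.5 TPM (67.9 to 83.8). This rise was 2.95-fold, or a log2 ratio of 1.56 (1.27 to 1.86), and it was called (FDR 6.71e-28 in the Audic-Claverie test). With TMM scaling the log2 ratio was 1.39.

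*S100a11* encodes the partner of Anxa1 and is also linked to membrane repair. Its levels were 895 TPM (869 to 921) in GC-1spg against 2248 TPM (2205 to 2291) in GC-2spd (ts), from 4539 and 10625 tags. It was called higher, with a log2 ratio of 1.33 (1.28 to 1.38), and 1.16 with TMM scaling. In GC-2spd (ts) it had the highest level of the 9 genes, although *S100a6* was within counting error of it.

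*S100a6* (calcyclin), long known as a gene of proliferating cells, had the most tags of the 9 genes in GC-1spg. Its levels were 3951 TPM (3896 to 4006) in GC-1spg against 2212 TPM (2170 to 2255) in GC-2spd (ts), from 20038 and 10455 tags. The log2 ratio was -0.84 (-0.87 to -0.80), below the fold required, and *S100a6* was not called. With TMM scaling it was -1.01, and *S100a6* was then called lower, where 9.99% of all genes were called lower and 8.94% higher.

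*S100a4*, an S100 protein of motile mesenchymal cells that binds nonmuscle myosin, had levels of 764 TPM (740 to 788) in GC-1spg against 1012 TPM (984 to 1041) in GC-2spd (ts), from 3873 and 4784 tags. Its log2 ratio of 0.41 (0.35 to 0.47) was not called, and it was 0.23 with TMM scaling.

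*Anxa1* encodes annexin A1, a mediator of the anti-inflammatory action of glucocorticoids and a substrate of the EGF receptor. It had 8066 tags in GC-1spg against 2400 in GC-2spd (ts), or levels of 1590 TPM (1556 to 1625) and 508 TPM (488 to 528). With levels scaled to clean tags *Anxa1* was the only one of the 9 genes called lower. It was 3.13-fold lower in GC-2spd (ts), with a log2 ratio of -1.65 (-1.71 to -1.58), and -1.82 with TMM scaling.

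*Anxa5* encodes annexin A5, which binds phosphatidylserine and is used as a stain for dying cells. From 515 tags in GC-1spg against 1177 in GC-2spd (ts), its levels were 102 TPM (93.0 to 111) and 249 TPM (235 to 264). It was called higher, 2.45-fold, with a log2 ratio of 1.29 (1.14 to 1.45) and an FDR of 1.45e-68 in the Audic-Claverie test. TMM scaling gave 1.12.

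The other 3 annexins were higher in GC-2spd (ts) by less than the fold required and were not called. *Anxa2*, the partner of S100a10 and a receptor for plasminogen and its activator, had 443 TPM (425 to 462) in GC-1spg against 539 TPM (518 to 560) in GC-2spd (ts), at a log2 ratio of 0.28 (0.20 to 0.36). *Anxa3* had 195 TPM (183 to 208) and 327 TPM (311 to 344), at a log2 ratio of 0.74 (0.63 to 0.86). *Anxa6*, an annexin with a duplicated core that acts in endosomes and cholesterol transport, had 66.4 TPM (59.5 to 73.9) and 95.4 TPM (86.8 to 105), at a log2 ratio of 0.52 (0.32 to 0.73). TMM scaling gave 0.11, 0.57 and 0.35, so none of the 3 changed direction. Each of these intervals lay above 0.

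**Figure D2:**
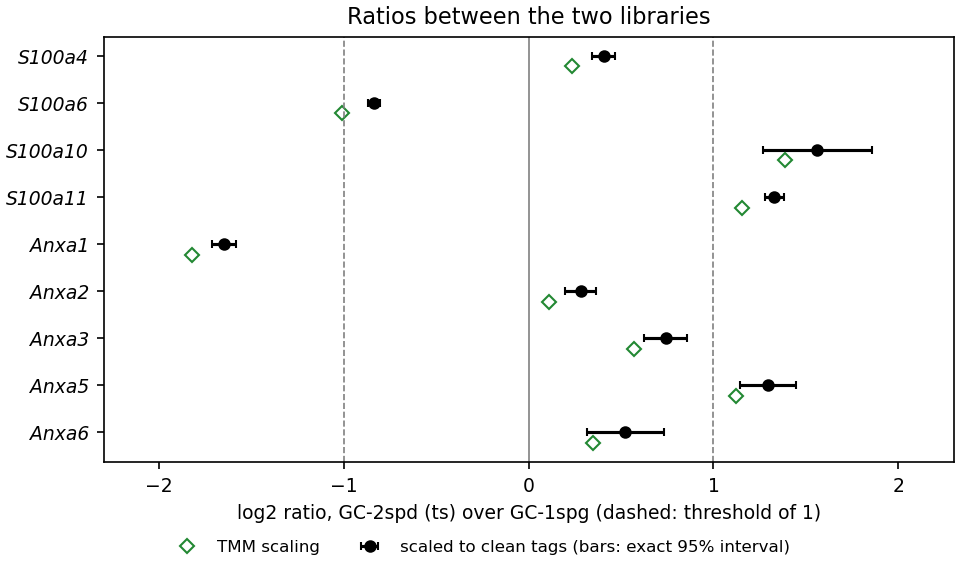
log2 ratio of levels, GC-2spd (ts) over GC-1spg, for the 9 listed genes, as scaled to clean tags (filled, with exact 95% intervals) and with TMM scaling (open). Dashed lines mark the log2 ratio of 1 that a call needs. *S100a10*, *S100a11* and *Anxa5* lie past it on the right and *Anxa1* on the left under both scalings, and *S100a6* passes it on the left with TMM only, at -1.01.

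Summed over the chosen genes of each family, the S100 tags took nearly equal shares of both libraries while the parts of the single genes differed. The annexin sum was lower in GC-2spd (ts). The 4 chosen S100 genes with a listed tag summed to 28580 tags in GC-1spg against 26221 in GC-2spd (ts), which are 0.563% and 0.555% of all clean tags. The log2 ratio of the sums was -0.02 (-0.05 to 0.00), and -0.20 with TMM scaling. Within that sum *S100a6* held 70.1% (69.6% to 70.6%) in GC-1spg against 39.9% (39.3% to 40.5%) in GC-2spd (ts), and *S100a11* held 15.9% (15.5% to 16.3%) and 40.5% (39.9% to 41.1%). *S100a4* went from 13.6% to 18.2% and *S100a10* from 0.455% to 1.36%. These shares do not depend on the scaling between libraries.

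The 5 chosen annexins summed to 12157 and 8119 tags, at a log2 ratio of -0.48 (-0.52 to -0.44), and -0.65 with TMM scaling. *Anxa1* held 66.3% (65.5% to 67.2%) of this sum in GC-1spg against 29.6% (28.6% to 30.6%) in GC-2spd (ts). The shares of the other 4 annexins were larger in GC-2spd (ts) by more than counting error. *Anxa2* went from 18.5% to 31.4%, *Anxa3* from 8.15% to 19.0%, *Anxa5* from 4.24% to 14.5% and *Anxa6* from 2.77% to 5.55%. In GC-1spg 1 gene held most of the tags of each sum, and in GC-2spd (ts) no gene of either sum did. The sums leave out other listed genes of the families, such as *Anxa4* (177 and 195 TPM) and *S100a1* (3.15 and 107 TPM).

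**Figure D3:**
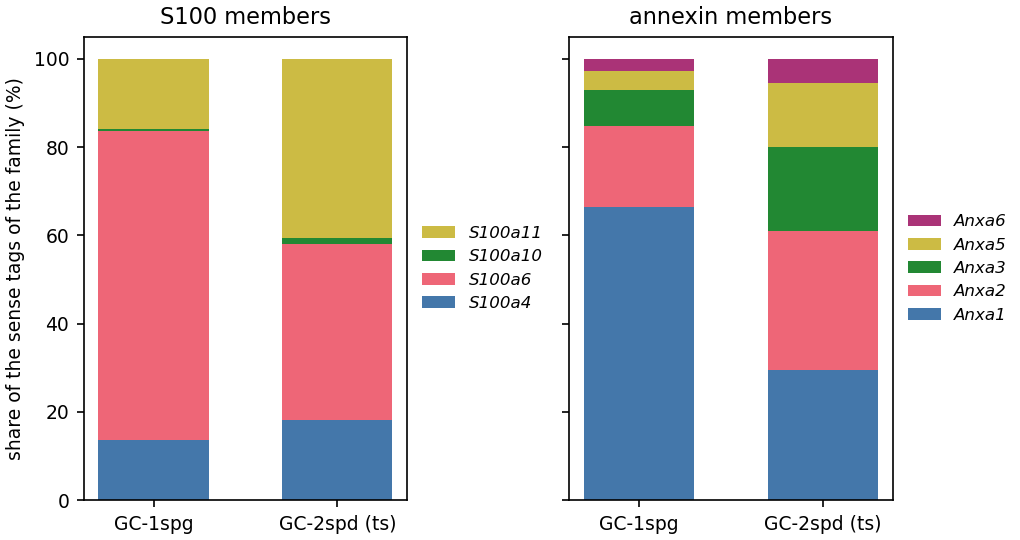
Share of each gene (%) in the summed sense tags of the 4 chosen S100 genes with a listed tag (left) and the 5 chosen annexins (right), 1 bar per library. *S100a6* goes from 70.1% in GC-1spg to 39.9% in GC-2spd (ts) and *Anxa1* from 66.3% to 29.6%.

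Ratios of the tags of 2 genes, which need no scaling between libraries, were taken for 7 pairs, of which all but *S100a11* with *S100a6* encode proteins or complexes known to bind each other. For S100a11 and its partner Anxa1, whose genes differed in opposite directions, *S100a11* had 0.563 tags per *Anxa1* tag in GC-1spg against 4.43 in GC-2spd (ts). This was a 7.87-fold change, or 2.98 (2.89 to 3.06) on the log2 scale. *S100a10* had few counted sense tags beside its partner *Anxa2* in both lines, at 0.0578 and 0.140 per *Anxa2* tag, a log2 difference of 1.28 (0.97 to 1.59). *S100a10* also had 188 and 280 antisense tags, and how fully its transcripts gave sense tags was not tested. The ratio of *S100a11* to *S100a6* was 0.227 in GC-1spg against 1.02 in GC-2spd (ts), a log2 difference of 2.17 (2.10 to 2.23).

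The ratios to partners outside both families were higher in GC-2spd (ts) for some pairs and lower for others. *Cacybp* encodes the calcyclin-binding protein, which links S100a6 to a ubiquitin ligase, and there were 38.8 *S100a6* tags per *Cacybp* tag in GC-1spg against 7.45 in GC-2spd (ts), a log2 difference of -2.38 (-2.53 to -2.23). With only the CATG site nearest the 3′ end *Cacybp* had 5 and 6 tags, and the difference was -1.22 (-3.27 to 0.75). *Ahnak* encodes a giant scaffold protein that the S100a10 and Anxa2 complex recruits to the membrane. *Anxa2* had 0.815 and 0.444 tags per *Ahnak* tag (log2 difference -0.88, -0.98 to -0.77), while *S100a10* had 0.0471 and 0.0623 (0.40, 0.10 to 0.71). *Myh9*, the nonmuscle myosin heavy chain that S100a4 binds, had one tag for 6.26 *S100a4* tags in GC-1spg and for 8.33 in GC-2spd (ts), a log2 difference of 0.41 (0.24 to 0.59). With that site only, *Myh9* had 36 and 44 tags, and the difference was 0.01 (-0.67 to 0.69). The size of some ratios depended on the CATG sites counted: with that site only, there were 3991 and 1710 *S100a6* tags per *Cacybp* tag. A ratio of tags stands for a ratio of transcripts only where the tags of both genes are recovered alike, which was not tested. The proteins were not measured here.

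Beside the main tags, minor tags of the same transcripts were counted. The sense tags of the 9 genes with at least 20 copies over both libraries numbered 29, and 18 of them matched exactly. *Anxa5* had 3 exact tags in 3 places of its transcript, with log2 ratios of 1.32 (1.15 to 1.49), 1.11 (0.64 to 1.60) and 1.19 (0.57 to 1.83) from the 3′ end upward. Both exact tags of *S100a10* were higher in GC-2spd (ts), at 1.60 (1.29 to 1.93) and 1.42 (0.32 to 2.65). *Anxa2* had 3 exact tags at 0.28, 0.46 and 0.22, of which only the main one had an interval above 0. These tags share a library and are not replicates.

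In 2 genes an exactly matched minor tag went the other way. *S100a6* has CATG sites that lie 5 bases apart, and tags of both were listed. Both tags are shown because the upstream one holds the start of the main one, and every CATG is in capitals.
S100a6, upstream site: CATGgCATGccctctggatca
S100a6, main site: CATGccctctggatcaggcca

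The upstream tag of *S100a6*, at chr3:90613766-90613786, had 82 copies in GC-1spg against 189 in GC-2spd (ts), at a log2 ratio of 1.31 (0.93 to 1.70), while the main tag had 19547 and 10063, at a log2 ratio of -0.86 (-0.89 to -0.82). There were 4.20 upstream tags per 1000 main tags in GC-1spg against 18.8 in GC-2spd (ts). The upstream tag is thus a small part of the gene's tags in both libraries. In *Anxa3* a coding tag of exon 12 had 18 and 6 copies (log2 ratio -1.48, -3.10 to -0.09), while its main tag was at 0.76 (0.64 to 0.88).

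**Figure D4:**
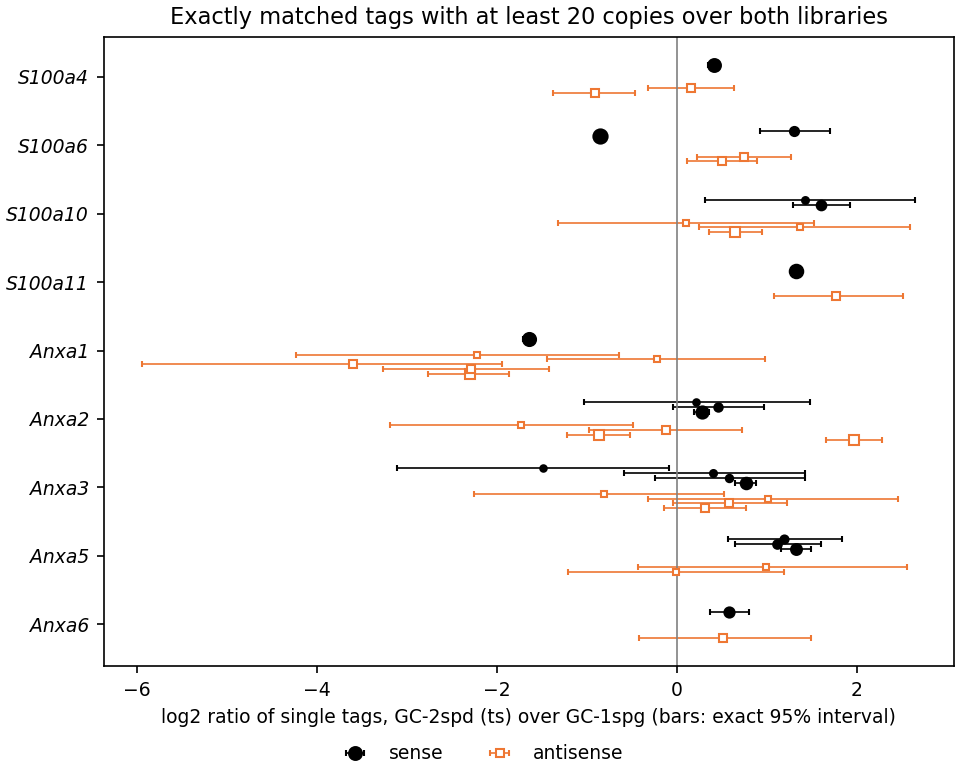
log2 ratio of single exactly matched tags with at least 20 copies, GC-2spd (ts) over GC-1spg, with exact 95% intervals. Filled points are sense tags and open squares antisense tags, and larger points hold more copies. The sense tags of a gene lie together except for the upstream tag of *S100a6* at 1.31 and the minor tag of *Anxa3* at -1.48.

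Few sense tags of these genes were left out because they matched another gene as well. These were 13 copies in GC-1spg against 10 in GC-2spd (ts) for *S100a4* (shared with the overlapping gene *Gm42674*), 6 and 2 for *S100a10* (*Gm4714*), 20 and 44 for *S100a11* (*Gm12854*, *Gm13640* and *Gm7665*) and 6 and 12 for *Anxa5* (*Anxa4* and *Mast4*). *S100a6*, *Anxa1*, *Anxa2*, *Anxa3* and *Anxa6* had 0 such copies. On the opposite strand, *Anxa1* lies within the long noncoding RNA gene *1500015L24Rik*, and *Anxa2* overlaps the antisense gene *Gm16144*. If the tags keep the strand of the RNA, which was not tested, these neighbours do not enter the sense counts.

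*S100a10* and *S100a11*, the chosen S100 genes called higher, are neighbours on chromosome 3, apart from the main group of S100 genes. The chromosome carries 14 S100 genes, 9 of them with a listed tag. A first group of 12 spans 185 kb, and these neighbours, 28.8 kb from each other, follow after a gap of 2.82 Mb. Neighbours in the first group differed in direction: *S100a4* had a log2 ratio of 0.41, and *S100a6*, next to it but for the unlisted *S100a5*, had -0.84. *S100a1*, not among the chosen genes but in the first group, was also called higher (16 and 508 tags, log2 ratio 5.09). It lies 0.043 kb from *S100a13*, on the other strand.

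Of the other 12 S100 genes 5 had a listed tag, of which 1 was called higher and 1 lower, with a median log2 ratio of 0.69. For this list and those below, the values over all genes were 11.7% called higher, 7.84% called lower and a median of 0.16. *S100a1*, which raises calcium cycling and force in muscle, had 16 tags in GC-1spg against 508 in GC-2spd (ts), or 3.15 and 107 TPM, at a log2 ratio of 5.09 (4.38 to 5.91). *S100a8*, a subunit of the neutrophil protein calprotectin, had 45 and 4 tags and was called lower, with a log2 ratio of -3.39 (-5.33 to -1.93). Its partner *S100a9* was unlisted in both libraries although the reference holds 6 tags for it. *S100a16* (80 and 120 tags, log2 ratio 0.69), *S100a7a* (89 and 136 tags, 0.71) and *S100a3* (60 and 31 tags, -0.85) were not called. For *S100a3* and *S100a7a* far more copies matched several genes at once and were left out, 19721 and 11260 for *S100a3* and 1430 and 1516 for *S100a7a*, so these values are uncertain. *S100a5*, *S100a14*, *S100b* and *S100z* were unlisted, and *S100a2* and *S100g* have no CATG tag to count.

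Of the other 7 annexins 5 had a listed tag, 0 were called higher and 1 lower, with a median log2 ratio of -0.05. *Anxa8*, an annexin of epithelia, had 196 tags in GC-1spg against 13 in GC-2spd (ts), at a log2 ratio of -3.81 (-4.75 to -3.00). *Anxa4* (896 and 923 tags, log2 ratio 0.14), *Anxa7* (121 and 209 tags, 0.89, but -0.20 with the 3′-most CATG site only), *Anxa11* (217 and 196 tags, -0.05) and *Anxa9* (14 and 9 tags, -0.54) were not called. TMM scaling put *Anxa4* at -0.03. *Anxa10* and *Anxa13* were unlisted. The annexin called lower among the 10 chosen genes and the one called lower here were thus *Anxa1* and *Anxa8*.

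Of 16 genes for binding partners 11 had a listed tag, of which 3 were called higher and 2 lower. The median log2 ratio was -0.01, beside 0.16 over all genes. *Ahnak* had 2758 tags in GC-1spg against 5733 in GC-2spd (ts), at a log2 ratio of 1.16 (1.09 to 1.22), called higher, and 0.98 with TMM scaling, not called. *Cacybp* had 516 and 1404 tags, at a log2 ratio of 1.55 (1.40 to 1.69), called higher, but 0.36 and no call when only the CATG site nearest the 3′ end was counted. *Dysf*, which encodes the membrane repair protein dysferlin, had 0 and 75 tags and was higher in GC-2spd (ts) by at least 12.8-fold, the bound using an upper limit of 6.30 counts in GC-1spg for its 2 tags, since single copies had been removed. *Myh10*, the other nonmuscle myosin heavy chain of the list, had 1438 and 373 tags and was called lower at -1.85 (-2.01 to -1.68). *Ager*, the receptor for advanced glycation end products and for S100 ligands, was also called lower, from 64 and 18 tags (-1.73, -2.57 to -0.96), but with the longest transcript of each gene it had no counted tag. Of those not called, *Myof* had 1376 and 1513 tags (0.24) and *Myh9* had 619 and 574 (-0.01).

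All 10 genes for penta-EF-hand and repair proteins had a listed tag, with 1 called higher, 1 lower and a median log2 ratio of -0.01. *Capn2*, the large subunit of a calcium-dependent protease, had 382 tags in GC-1spg against 1114 in GC-2spd (ts), at a log2 ratio of 1.65 (1.48 to 1.82). *Pef1* had 204 and 86 tags and was called lower at -1.14 (-1.53 to -0.77). *Vps4b*, an ATPase that disassembles ESCRT-III (945 and 548 tags, -0.68), and *Pdcd6* (634 and 723 tags, 0.29) were not called. With TMM scaling 2 were called lower, the other being *Chmp4b* of ESCRT-III (593 and 300 tags, -0.88, and -1.06 with TMM), named after its values were seen.

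Of 9 copines, calcium-dependent membrane-binding proteins, 4 had a listed tag. *Cpne3* was called higher (509 and 988 tags, log2 ratio 1.06, 0.90 to 1.22), but not with TMM scaling (0.88), and *Cpne8* was called lower (321 and 44 tags, -2.77, -3.25 to -2.31), or at -1.10 from 1684 and 733 tags when tags of several genes were counted for each. *Cpne2* (17 and 43 tags, 1.44) and *Cpne5* (7 and 0 tags) were not called. *Cpne2* was called higher with the 3′-most CATG site only (1.69) and when genes under 10 tags were left out (1.44). The median log2 ratio was 1.06 over the 3 copines listed in both libraries.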

How the data were processed

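The authors prepared 1 DGE library per line, sequenced it on the Illumina platform, removed adaptor tags, low quality tags and single copies, and deposited each remaining tag with its raw count and its TPM, the count per 1000000 clean tags. The smallest deposited count was 2. Here the reference was every CATG+17 tag in GENCODE M21 transcripts (GRCm38), matched with at most 1 mismatch, exact matches first. A tag was unambiguous when its best matches on both strands belonged to 1 gene, and unambiguous sense counts were summed (54.7% and 57.9% of clean tags). The UniGene reference of the authors was not used here.

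The Audic-Claverie test used an FDR of at most 0.001, a log2 ratio of at least 1 in either direction and 0.01 TPM for a count of 0. edgeR's quasi-likelihood test cannot be fitted with 1 library per line. Calling was tested on simulated data that held counting noise only, without spread between cultures. There 78.5% of 200 genes changed 4-fold were recovered. The genes and lists were chosen with earlier results of these data known. Named were all 10 genes, every other listed S100 gene and annexin, and, of the partner lists, the called genes, the 2 most abundant others, and *Ahnak*, *Cacybp* and *Dysf*. A further list is not reported here. Of the 18 alternatives 3 were added after seeing the data: the most abundant tag of each gene only, all tags but that one, and transcripts extended by poly(A). The ratios between genes at the site nearest the 3′ end were also added then. Python 3.11.15, scipy 1.17.1, pandas 2.3.3, numpy 2.4.6, matplotlib 3.10.9, R 4.3.3 and edgeR 4.0.16 were used.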

Additional observations from a re-analysis of the deposited data

Results flagged for a closer look

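Antisense tags were not part of the comparisons. The S100 and annexin genes had 1586 unambiguous antisense tags in GC-1spg against 1646 in GC-2spd (ts), above the limit that a count of 0 allows. They made up 3.75% and 4.57% of the tags of these genes on both strands, beside 12.2% and 10.9% over all genes. *S100a10* stood apart from the others, with 188 antisense and 130 sense tags in GC-1spg (59.1% antisense) and 280 and 357 in GC-2spd (ts) (44.0%).

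In 7 of the 9 genes the antisense tags differed between the libraries in the direction of the sense tags, with intervals that excluded 0 in 5 of them. These included *Anxa1* (430 and 91, log2 ratio -2.14, -2.48 to -1.81) and *S100a11* (29 and 110, 2.03, 1.42 to 2.67). The same count was not taken over all genes, so it cannot be called particular to these genes. The antisense tags of *S100a6* (153 and 216, 0.60, 0.29 to 0.91) and *S100a4* (199 and 139, -0.42, -0.74 to -0.10) differed in the opposite direction. In *Anxa2* 1 antisense tag of exon 5, at chr9:69479768-69479788, had 112 copies in GC-1spg against 408 in GC-2spd (ts) (1.97, 1.66 to 2.28), while another in exon 13 had 207 and 106 (-0.86, -1.22 to -0.52). Of 24 antisense tags with at least 20 copies, 8, in 8 genes, read away from the same CATG site as the main sense tag of their gene. The source of these tags was not tested.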

How the results depend on the processing

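Over 18 alternatives 151 of the log2 ratios of the 9 listed genes kept the direction and the call, 9 lost the call, 1 gained it and 1 changed sign. The count of these genes called, 3 higher and 1 lower, was 2 lower with TMM scaling. edgeR's exact test with an assumed biological coefficient of variation (BCV) of 0.2 or 0.4 called 0 higher and 0 lower, and with 0.1 it called 3 and 1. *Ager*, *Pef1*, *Ahnak*, *Cacybp*, *Capn2* and *Cpne3* also lost their calls at BCV 0.2. *Pef1* lost its call with transcripts extended by poly(A) too (-0.89). Over all genes BCV 0.2 called 511 higher and 489 lower, BCV 0.4 called 108 and 136, and TMM scaling called 1292 and 1443. The calls of all 4 genes therefore assume little spread between cultures, which was not measured. Without its main tag *S100a10* was at 1.19 and not called, and *Anxa6* was at -0.27, from few tags. *S100a6* (-0.22) and *S100a4* (0.03) were also nearest to 0 without their main tags. What then remained of *S100a4* (59 and 56 copies) and *S100a11* (59 and 170) was tags with 1 mismatch only. For *S100a6* it was such tags (409 and 203) and the overlapping upstream tag (82 and 189). In these 3 genes this setting is thus no reading from a separate, exactly matched site. Across the alternatives *Anxa1* ranged from -2.27 to -1.64, *S100a6* from -1.01 to -0.22, *S100a11* from 1.16 to 1.63, *S100a10* from 1.10 to 1.63 and *Anxa5* from 1.12 to 1.32. *S100a4* ranged from 0.03 to 0.41, *Anxa2* from 0.11 to 0.38 and *Anxa3* from 0.41 to 0.76.

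Genes outside the 10 changed sign as follows. Counting only the CATG site nearest the 3′ end gave *Anxa7* -0.20, *Anxa11* 0.0092 and *Myh9* 0.39. Counting both strands gave *Anxa11* 0.031 and *Myh9* 0.10, and TMM scaling gave *Anxa4* -0.029. *Sri* was -2.47 with sense matches preferred and -1.97 with tags of several genes counted for each. The causes were not tested, apart from the shift of all ratios by TMM scaling. No paired analysis was possible because each line has 1 library, which also left no replicate to leave out. Depth limits low genes most: 1 copy is 0.197 or 0.212 TPM.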

Other observations

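*Sri* encodes sorcin, a penta-EF-hand protein of calcium release channels, and was named after its values were seen. It had 223 unambiguous sense tags in GC-1spg against 311 in GC-2spd (ts), at a log2 ratio of 0.58. With sense matches preferred over antisense matches it had 3462 and 582 tags and was called lower, at -2.47. The tags that made this difference match sorcin on the sense strand and another gene on the antisense strand, and which gene they came from was not tested.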
